A study of Rattus norvegicus with 13 samples.

Results

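The 4 left ventricles of pregnant rats given the nitric oxide (NO) synthase inhibitor L-NAME were compared with the 4 of pregnant rats given L-methionine. These 8 arrays, of 13 in the series, were taken by their titles, and the other 5 arrays are from control pregnant rats. All animals were female Sprague Dawley rats, and all groups, controls included, were pregnant and ate standard chow. By the sample records, L-NAME was given at 1 g/L and L-methionine (Met) at 9 g/L in the drinking water over gestation days 1 to 20. Hearts were taken on day 20 or 21. A single Affymetrix Rat Genome 230 2.0 array holds each sample, and the labels do not tie an array to a named animal, so p-values measure the spread between arrays. The tissue is whole left ventricle, so in every result fewer cells of a type and less RNA per cell cannot be told apart. Neither age nor the number of earlier pregnancies is on the labels of these samples. The paper on this series describes rats with several pregnancies, given methionine from the start of the first one until death. Its account and the days on record differ, so the length of Met exposure is uncertain here.

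NO is made from arginine by the NO synthases. It activates soluble guanylyl cyclase, and the cGMP that results relaxes smooth muscle and signals in cardiac myocytes. L-NAME is an arginine analog that blocks all the NO synthases. Methionine is converted through S-adenosylmethionine to homocysteine, and a high homocysteine is associated with less available NO, so that both treatments bear on NO, one at the enzyme and one through metabolism. The comparison asks which transcripts separate the ventricles after these 2 treatments.

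Signals are MAS5 values, a linear brightness of each probe set, scaled by the authors so that every array had the same trimmed mean. A probe set is a group of short probes against a single transcript. Differences are given on the log2 scale as L-NAME-fed minus Met-fed with the standard error, from limma fitted to all 13 arrays, and a probe set was called at a Benjamini-Hochberg adjusted p under 0.05. Of 31042 probe sets, 12495 were called (40.3%), 7885 higher (25.4%) and 4610 lower (14.9%) in L-NAME-fed. A fall or rise of over 2-fold was seen in 1289 and 4309 of the called probe sets. The 2 groups of arrays did not overlap on 12278 of the 31042 probe sets, and on 10827 of the 12495 called. A lack of overlap, given for genes below, is thus usual among called probe sets. The split by direction depended on the scaling. It was 5634 higher and 5752 lower after quantile normalization, 4184 and 7976 with median centring of the arrays, and 10301 and 2635 when centred on the spike-in controls. The median log2 difference of all probe sets was 0.25 as deposited, against -0.11 with median centring and 0.48 with spike-in centring.

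The 2 groups of arrays also differed in measures of the array as a whole and of its control probe sets. The log2 ratio of the 3' to the 5' control probe set of beta-actin was 3.45, 3.32, 3.71 and 3.63 on the Met-fed arrays and 2.32, 2.70, 2.48 and 2.41 on the L-NAME-fed arrays. The same ratio of Gapdh was 1.12 ± 0.15 (SD, n = 4) in Met-fed and 0.56 ± 0.09 (SD, n = 4) in L-NAME-fed. Neither ratio overlapped between groups (exact permutation test, two-sided, p = 0.029, the smallest that 4 against 4 arrays allow, and 0.0393 after Benjamini-Hochberg adjustment over 11 measures). The ratio of hexokinase, the third such control, was 1.57 ± 0.736 in Met-fed and 1.85 ± 0.245 in L-NAME-fed (SD, n = 4 each, exact permutation p = 0.486). Actin and Gapdh are transcripts of the tissue, and the 3' and 5' signals of beta-actin were themselves 0.99 and 2.04 higher on the log2 scale in L-NAME-fed (both exact permutation p = 0.029). The median signal was 25.8 to 29.2 on the Met-fed and 34.2 to 36.9 on the L-NAME-fed arrays, and the mean of the spike-in controls was 0.23 lower on the log2 scale in L-NAME-fed (both exact permutation p = 0.029). The 5 control arrays had beta-actin ratios of 3.31 to 3.68 and median signals of 25.7 to 27.2, on the side of the Met-fed arrays. With the beta-actin ratio as a covariate 238 probe sets were called, 55 higher and 183 lower. Of the 138 genes named in this comparison 14 were among them. In that fit 11700 of the 12495 kept their sign and the median standard error rose from 0.272 to 0.853. Treatment and these array measures cannot be told apart in this design. The beta-actin ratio does not overlap between the L-NAME-fed and all other arrays. A gene called in the covariate fit is therefore not shown to differ apart from array quality.

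**Figure D1:**
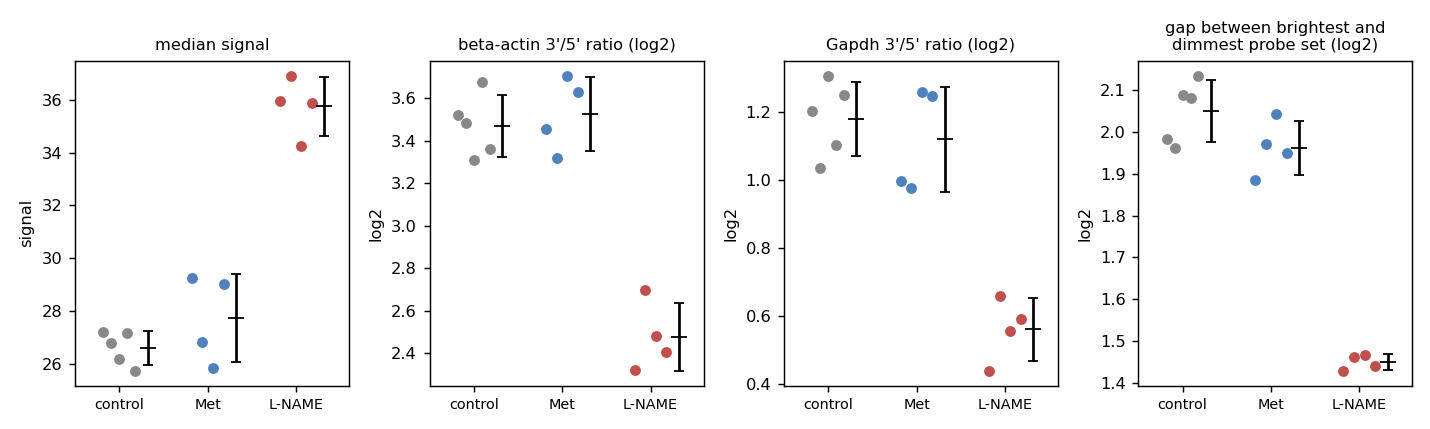
Array measures in each group (control, n = 5; Met-fed, n = 4; L-NAME-fed, n = 4). Points are arrays, and the bar beside them is the mean ± SD. From the left: median MAS5 signal, log2 3'/5' ratio of the beta-actin and of the Gapdh control probe sets, and the median over 1988 genes of the log2 gap between a gene's brightest and dimmest probe set. In all 4 panels the L-NAME-fed arrays lie apart from both other groups, and the Met-fed arrays lie among or near the controls.

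The direction of the difference followed the brightness of the probe set. Probe sets were divided by mean signal into 10 bins of equal size. In the brightest bin, with mean signals from 534 to 4280, 14.2% of probe sets were higher and 48.2% lower in L-NAME-fed, and the median difference was -0.23. In the bin just above the median signal (29.2 to 61.7), 36.8% were higher and 12.9% lower, with a median of 0.32. In the dimmest bin, below a signal of 0.924, 5.73% were higher and 0.612% lower. Over all genes, read by the brightest probe set, 21.5% were higher and 22.5% lower. These genes were also divided by signal into 10 gene bins. In gene bins 4 to 7 27.2% to 32.7% were higher and 14.8% to 26.9% lower. In the brightest gene bin 7.81% were higher and 56.7% lower. The counts of the gene lists below are to be read beside these shares. Median centring lowers every difference by the same amount, and list counts under it stand beside those as deposited where the balance of higher and lower changed.

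**Figure D2:**
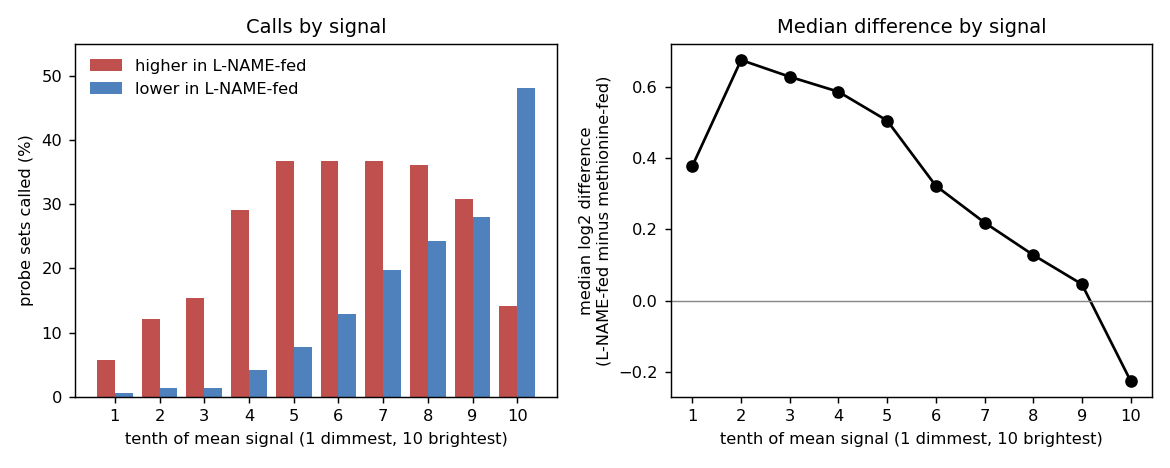
Calls and differences by mean log2 signal in 10 bins over the 13 arrays (about 3104 probe sets in each bin). Left, percent of probe sets called higher (red) or lower (blue) in L-NAME-fed. Right, the median log2 difference, L-NAME-fed minus Met-fed. The median falls from 0.68 in bin 2 to -0.23 in bin 10, where the lower calls outnumber the higher ones.

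The same order held between probe sets of a single gene. Of 14217 genes with a symbol of their own, 1988 had at least 2 probe sets at or above the median signal. All of these probe sets were called higher in 281 genes (14.1%) and lower in 111 (5.58%), while 382 genes (19.2%) had called probe sets in opposite directions, 906 were called by a part of their probe sets and 308 by none. In 335 of the 382 the brightest called probe set was lower in L-NAME-fed and the dimmest higher, and the reverse held in 31. Over the 1988 genes the median difference was -0.06 for the brightest probe set and 0.51 for the dimmest. Within an array, the median log2 gap between these 2 probe sets was 1.89 to 2.04 in Met-fed and 1.43 to 1.47 in L-NAME-fed, without overlap (exact permutation p = 0.029). It was 1.96 to 2.14 in the controls.

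**Figure D3:**
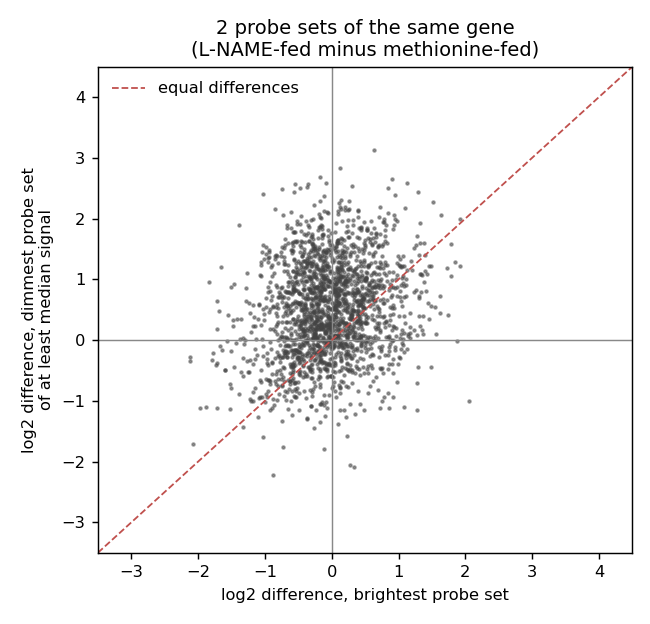
Log2 difference, L-NAME-fed minus Met-fed, of the brightest (x axis) and the dimmest (y axis) probe set of at least median signal for each of 1988 genes. The dashed line marks equal differences. In 1464 genes the dimmest probe set lies above the line, and 732 points lie in the upper left quadrant, with a lower brightest and a higher dimmest probe set.

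The genes with the widest such gaps were read first. Pygm, muscle glycogen phosphorylase, had signals of 1372, 1918, 1704 and 1654 in Met-fed and 1054, 1062, 1298 and 1114 in L-NAME-fed for its brightest probe set, a difference of -0.55 ± 0.10 (adjusted p = 3.6e-04). Its dimmest bright probe set read 62.2, 62.1, 49.6 and 51.8 in Met-fed and 309.5, 315, 399.7 and 309 in L-NAME-fed, a difference of 2.56 ± 0.18 (adjusted p = 6.1e-08). The groups did not overlap on either probe set, and the directions were opposite. Nmt1, which attaches myristate to proteins, differed by -1.04 ± 0.08 on one probe set and 2.41 ± 0.21 on the other. Ythdf2, a reader of methylated adenosine in mRNA, differed by -1.39 ± 0.08 and 1.90 ± 0.49. Its brightest probe set was also called with the beta-actin covariate (-1.65, adjusted p = 0.0107). A call in that fit thus does not settle the direction of a gene. Gramd2b (-0.74, 1.28 and 2.49), Vars1, the cytosolic valyl-tRNA synthetase (-0.86 and 2.16), and Prrc1 (0.53, -1.37 and 1.81) were the remaining 3. For these 6 genes no direction of the gene can be read from the arrays.

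Genes on which all bright probe sets agreed give the separation with the least dependence on a single probe set. Some of the agreed rises count as bright only through their signals on the L-NAME-fed arrays, so the agreement is in part a matter of selection. Siva1, a proapoptotic protein, had the widest agreed fall. It read 458, 409.7, 485 and 419 in Met-fed and 111, 98.96, 97.1 and 111 in L-NAME-fed on the brighter of 2 probe sets (-2.08 ± 0.12, adjusted p = 1.1e-08), and 182, 167, 186 and 164 against 63.1, 50.1, 42.1 and 59.7 on the other (-1.72 ± 0.13). All 4 L-NAME-fed arrays were below all 4 Met-fed arrays on both. Zbtb47, a zinc finger protein, fell by 1.97 and 1.12 on the log2 scale, and Ring1, a Polycomb ubiquitin ligase, by 1.52 and 1.13. Chd1l, a chromatin remodeller that acts in DNA repair, fell by 1.71 and 1.12. Cmklr1, the receptor for chemerin, fell by 1.89 and 1.11 on its bright probe sets, while the dimmest one, at or under the bacterial control level on 2 Met-fed arrays, differed by 2.04 ± 0.65.

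The other genes with an agreed fall were Smim27 (-1.32 and -1.43), Rita1, which binds the Notch effector RBPJ (-1.10 and -1.27), the aminopeptidase Aopep (-1.03 and -1.60), and the orphan receptor Gpr146 (-1.21 and -1.01). Elmod3 (-1.18 and -1.0), Dmac2l, a mitochondrial ATP synthase factor (-1.22 and -0.97), and Cops7a, a COP9 signalosome subunit (-0.997 and -1.02), completed the 12. Cops7a also had a dimmer probe set, below the median signal, with the opposite call (1.56 ± 0.22).

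Among the agreed rises was a vascular gene known from pregnancy. Flt1, the VEGF receptor whose soluble form circulates in preeclampsia, read 90.00, 102, 92.5 and 71.9 in Met-fed and 221, 207, 220.4 and 222 in L-NAME-fed on its brightest probe set (1.30 ± 0.18, adjusted p = 3.6e-05). Its other 2 probe sets differed by 1.39 ± 0.21 and 1.45 ± 0.26, and the groups did not overlap on any of the 3. The first of these 2 counts as bright through L-NAME-fed signals of 60.17 to 67.55, with 21.36 to 27.92 in Met-fed. Against control, however, the brightest probe set was 0.47 in L-NAME-fed and -0.83 in Met-fed (the latter not called, adjusted p = 0.152). The next probe set was 1.46 and 0.06 against control. Which probe sets read the soluble form was not analysed here.

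Stc1, the secreted glycoprotein stanniocalcin, rose by 1.33 and 1.60 on its bright probe sets, with the Met-fed arrays spread from 26.9 to 134 on the brighter one, which the methods' t-test did not call (adjusted p = 0.094). Cbl, a ubiquitin ligase for receptor tyrosine kinases, rose on all 4 of its probe sets, by 1.37, 1.59, 1.52 and 1.68. Ryk, a Wnt receptor, rose by 1.32 and 1.92, and Eif4g1, the scaffold of translation initiation, by 1.84 and 1.29 on its bright probe sets. Slu7, a splicing factor, had the widest agreed rise, from 35.03 to 51.2 in Met-fed to 111 to 139 in L-NAME-fed (1.64 ± 0.19, adjusted p = 6.4e-06) and by 2.05 on its second probe set. Opcml, a neuronal cell adhesion protein, rose by 1.51 and 2.27.

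The other 5 of the 12 include further ubiquitin ligases and zinc finger proteins, Unkl (1.79 and 1.58), Arih2 (1.28 and 1.72), Bfar (1.26 and 1.57) and Rnf4 (1.23 and 1.52). Isoc2b rose from 230.3 to 308 to 556 to 749.5 (1.29) and by 2.44 on its dimmer probe set. No theme is read from this group, since it was picked by size.

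Genes read by a single bright probe set moved further but have no second reading. Ecscr, an endothelial surface protein, read 370.5, 280.5, 309 and 297 in Met-fed and 40.3, 20.5, 55.4 and 38.1 in L-NAME-fed (-3.10 ± 0.24, adjusted p = 1.3e-07). Hgs, which sorts receptors to the lysosome, went from 260.0 to 351 to 34.03 to 43.5 (-2.98 ± 0.15), and Zfp580 from 172 to 247 to 22.4 to 29.8 (-2.98 ± 0.15). Isyna1, which makes inositol phosphate from glucose phosphate, differed by -2.54 ± 0.12, the phosphatase Ptpn23 by -2.40 ± 0.17, and the splicing factor Sf3a2 by -2.36 ± 0.16. C2cd4b (-2.58 ± 0.39) and the heat shock factor Hsf4 (-2.57 ± 0.28) were the other 2 of the 8. With the beta-actin ratio as a covariate Ecscr (-4.39), Hgs (-2.87), Zfp580 (-2.54), Isyna1 (-2.66), Ptpn23 (-2.77) and Sf3a2 (-2.69) were called, as were Siva1 (-2.54), Smim27 (-1.73) and Ring1 (-2.12). That fit cannot set treatment apart from the array measures for these genes, which were picked for large differences.

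The widest single rises held genes of red cells, antigen presentation and xenobiotic metabolism. Ahsp, the chaperone of alpha globin, read 26.7, 3.37, 21.3 and 33.2 in Met-fed and 102, 66.05, 122 and 123 in L-NAME-fed (2.66 ± 0.59, adjusted p = 0.0018), and its Met-fed value of 3.37 was under the highest bacterial control of that array. Cyp1a1, the enzyme induced through the aryl hydrocarbon receptor, read 12.8, 33.6, 19.3 and 16.03 against 79.1, 77.7, 101 and 202 (2.47 ± 0.50). RT1-Da, a class II antigen of the rat MHC, read 166, 331, 332 and 168 against 1111, 963, 1309.5 and 1653 (2.39 ± 0.22), and the class I RT1-A went from 16.2 to 23.3 to 71.5 to 167 (2.57 ± 0.24). MHC genes are polymorphic and have close copies, so that probe sets for them are uncertain. Arf5, a Golgi GTPase (2.31 ± 0.14), Mxd1, a Myc antagonist (2.28 ± 0.20), and Ehd2, a caveolar ATPase (2.13 ± 0.17), were the tightest of the 8. Of them Arf5 (2.26) and Mxd1 (2.93) were called with the beta-actin covariate. Ddit4, an inhibitor of mTOR that glucocorticoids and hypoxia induce, read 233, 111, 81.96 and 116 in Met-fed and 354, 789.9, 872 and 512 in L-NAME-fed (2.25 ± 0.33, adjusted p = 4.8e-05).

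**Figure D4:**
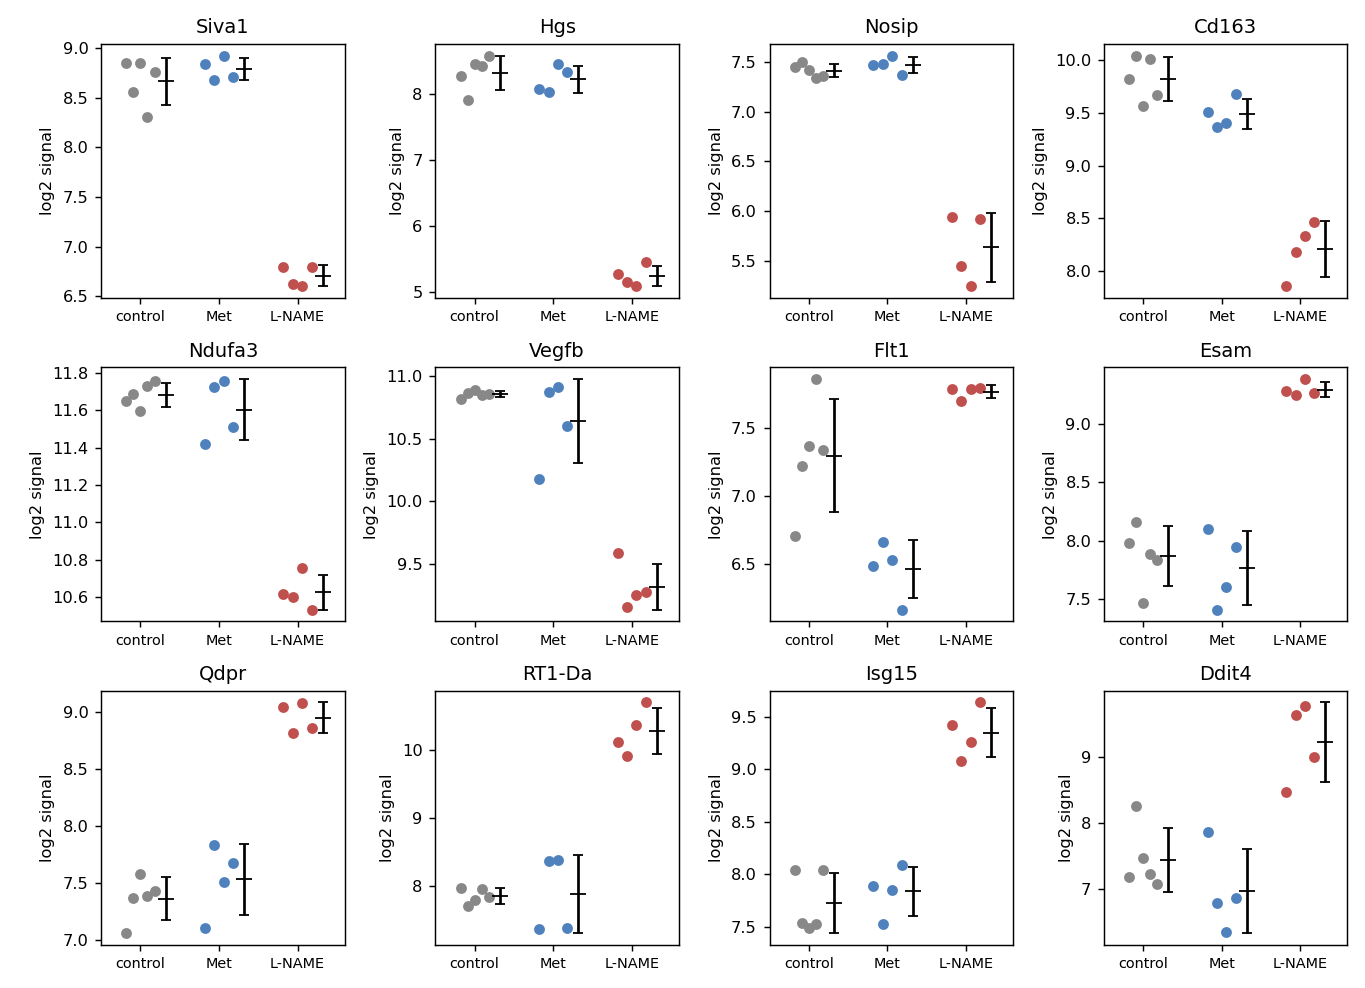
Log2 MAS5 signal of the brightest probe set of 12 genes on each array (control, n = 5; Met-fed, n = 4; L-NAME-fed, n = 4), with the mean ± SD beside the points. The y axes do not start at 0 and differ between panels. The first 6 genes were lower and the last 6 higher in L-NAME-fed than in Met-fed, without overlap of these 2 groups; for Flt1 the Met-fed mean also lies below the control mean.

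The targets of the 2 treatments were dim or little changed. Nos1, Nos2 and Nos3, the neuronal, inducible and endothelial NO synthases, had signals of 4.17 to 7.54, 4.11 to 10.7 and 12.5 to 27.2 in Met-fed and 3.68 to 6.68, 0.76 to 13.2 and 12.5 to 36.4 in L-NAME-fed, all overlapping. Their differences were -0.29 ± 0.36, -0.30 ± 0.71 and 0.42 ± 0.33 (adjusted p = 0.57, 0.78 and 0.33). Nos1 and Nos2 were each at or under the highest bacterial control on 1 L-NAME-fed array, so that a change in either could hardly be measured. For Nos2 that array was L-NAME-fed replicate 2, without which the difference turned to 0.69 (adjusted p = 0.205).

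Genes around the synthases moved more. Of 21 measured genes of NO synthesis and breakdown 8 were higher (38.1%) and 4 lower (19%), beside 21.5% and 22.5% of all genes by their brightest probe set, and the median difference was 0.18 against 0.05 over all genes. With median centring the count was 3 higher and 7 lower, so the list has no settled direction. Nosip, which binds the endothelial synthase and moves it from the membrane, read 177, 178, 189 and 165 in Met-fed and 61.4, 43.7, 38.02 and 60.6 in L-NAME-fed (-1.83 ± 0.15, adjusted p = 1.7e-07). It was called with the beta-actin covariate (-2.30), a fit that cannot set treatment apart from the array measures. Ddah1, which degrades the endogenous inhibitor asymmetric dimethylarginine, read 104, 65.03, 72.9 and 65.5 against 226, 185, 182 and 135 (1.25 ± 0.21, adjusted p = 1.8e-04). Qdpr, which regenerates the cofactor tetrahydrobiopterin, read 138, 228, 182 and 205 against 529.5, 449.9, 542 and 465 (1.42 ± 0.15, adjusted p = 1.8e-06). All 4 L-NAME-fed arrays lay on one side of the Met-fed arrays for these 3 genes. Asl, which makes arginine from argininosuccinate, was -1.28 ± 0.12 on its brighter and 0.65 ± 0.17 on its dimmer probe set, both called.

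Of 16 measured genes of cGMP signaling 7 were higher (43.8%) and 1 lower (6.25%), with a median difference of 0.58. The list also holds natriuretic peptide receptors, which NO does not act through. Over all genes 21.5% were higher and 22.5% lower. In gene bins 4 and 5, around the median member, 27.2% and 29% were higher and 14.8% and 23.3% lower. The count was 5 and 1 after quantile normalization and 3 and 1 after median centring. Both subunits of soluble guanylyl cyclase, the NO receptor, were higher on both of their probe sets. Gucy1a1 read 473, 464, 502 and 580.2 in Met-fed and 576, 737, 644 and 698 in L-NAME-fed (0.39 ± 0.10, adjusted p = 0.0038, groups overlapping on 1 array), and 0.98 ± 0.34 on a dim probe set. Gucy1b1 read 102, 89.6, 81.1 and 97.4 against 139, 151, 105 and 139.6 (0.52 ± 0.13, adjusted p = 0.0046), and 1.11 ± 0.15 on its other. Npr3, the clearance receptor for natriuretic peptides, went from 15.8 to 21.9 to 50.4 to 73.8 (1.61 ± 0.23), and Pde1a, a phosphodiesterase that degrades cGMP, from 6.43 to 14.3 to 18.5 to 28.9 (1.21 ± 0.33). Npr3 and Pde1a were below the median signal. With median centring the brighter probe sets of Gucy1a1 (0.03) and Gucy1b1 (0.15) were no longer called, and Pde1a lost its call with quantile normalization (0.76, adjusted p = 0.077).

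Of 26 measured genes of methionine and homocysteine metabolism 5 were higher (19.2%) and 7 lower (26.9%), close to the share among all genes. With median centring 1 was higher and 11 lower, and with spike-in centring 7 and 5. Mat2a, the methionine adenosyltransferase outside the liver, read 1679, 2047, 2019.5 and 1972 in Met-fed and 1559.7, 1906, 1852 and 1676 in L-NAME-fed (-0.14 ± 0.08, adjusted p = 0.18), while a dimmer probe set was 1.15 ± 0.18. After quantile normalization the brighter one turned to 0.19, with an adjusted p of 0.019. Its regulatory partner Mat2b was lower (-0.38 ± 0.07, adjusted p = 7.2e-04). Ahcy, which cleaves S-adenosylhomocysteine to homocysteine, read 127 to 214 in Met-fed and 178 to 220.2 in L-NAME-fed (0.32 ± 0.15, adjusted p = 0.11). Ahcy was called when Met-fed replicate 1 was left out (0.46, adjusted p = 0.018), as was the brighter probe set of Mat2a (-0.21, adjusted p = 0.038). The enzymes that remove homocysteine were below the median signal, and none was called as deposited. The differences were 0.17 ± 0.35 for Cbs, 0.99 ± 0.54 for Cth and 0.34 ± 0.33 for Mtr. Cth was called without Met-fed replicate 2 (1.501, adjusted p = 0.024). Bhmt, at or under the bacterial control level on all 8 arrays, has no readable level, and the liver enzyme Mat1a differed by -0.07 ± 0.35.

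The members that did separate the groups belong to branches of the pathway. Srm, spermidine synthase, read 189, 151, 151 and 141 in Met-fed and 94.5, 61.3, 74.5 and 78.7 in L-NAME-fed (-1.04 ± 0.15, adjusted p = 3.5e-05), without overlap. Sms, spermine synthase, was higher, from 280.0 to 346 to 430.4 to 498 (0.56 ± 0.10), and by 2.29 on a dim probe set. Mthfd1, which supplies folate one-carbon units, was -0.86 ± 0.13. Ahcyl1, a relative of Ahcy, was higher on all 3 probe sets, by 0.57, 0.56 and 0.77. With median centring the brightest probe sets of Sms (0.20) and Ahcyl1 (0.20) were no longer called.

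**Figure D5:**
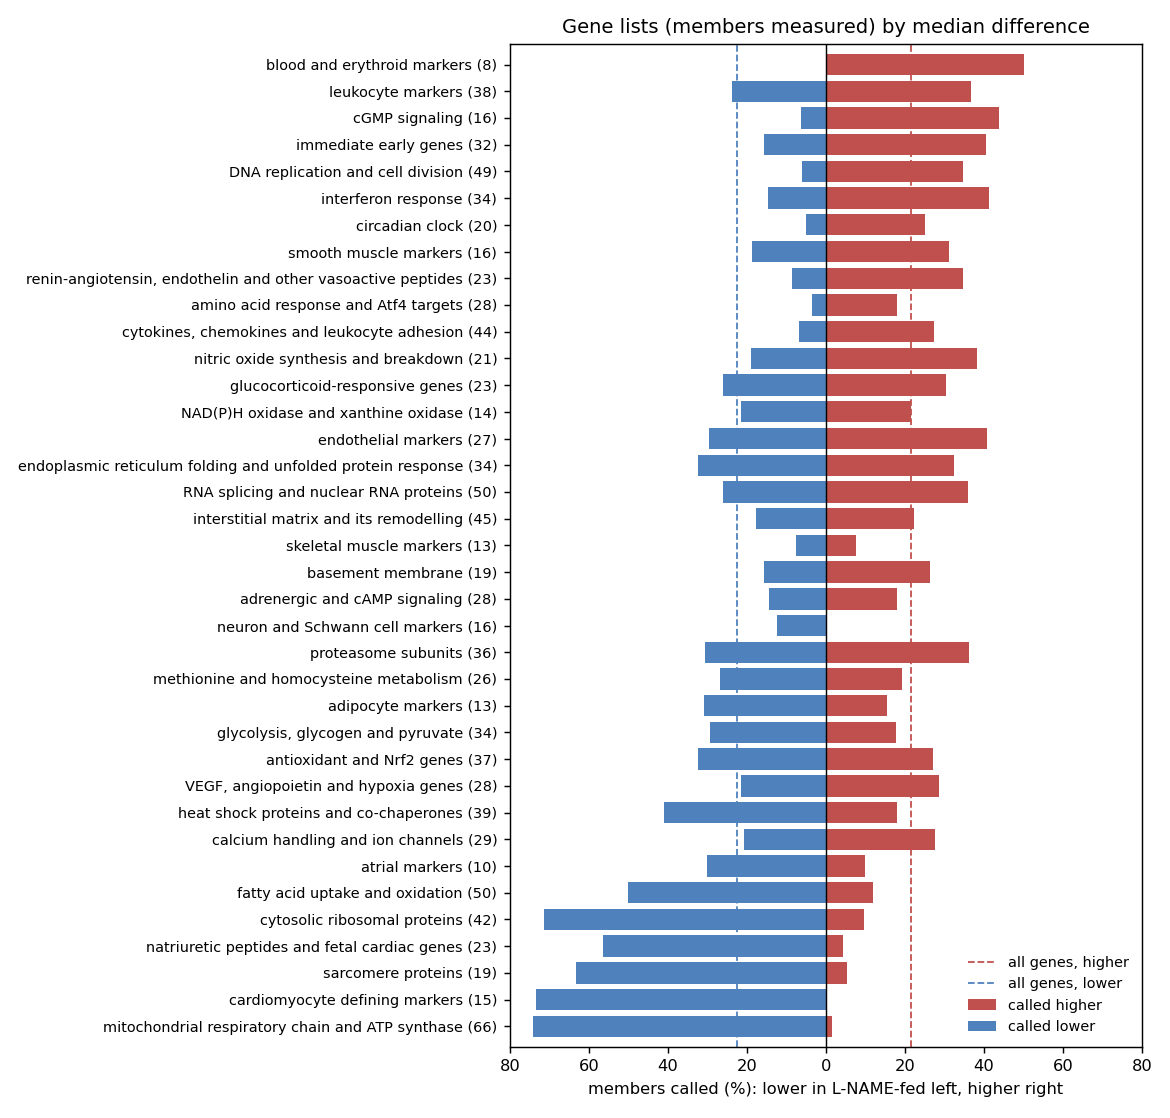
Share of the measured members of each gene list called higher (red, right) and lower (blue, left) in L-NAME-fed against Met-fed, each gene by its brightest probe set, with lists ordered by median log2 difference. Dashed lines mark the shares over all 14217 genes (21.5% higher, 22.5% lower). Respiratory chain, cardiomyocyte, sarcomere and ribosomal lists extend farthest to the left, and these are lists of very bright genes.

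The samples read as cardiac muscle, and ventricle was not set against atrium. All 15 measured defining markers of cardiac myocytes were in the brightest of 10 bins of genes by signal. Of these, 11 were lower and none higher in L-NAME-fed, with a median of -0.49, against 56.7% lower and 7.81% higher among all genes of the brightest bin. After quantile normalization the 15 divided into 4 higher and 4 lower. Of 5 markers with several bright probe sets 1 was lower on all, and 3 had calls in opposite directions. Pln, the inhibitor of the calcium pump, read 3005, 3757, 3667 and 3297 in Met-fed and 2248, 2478, 2500.5 and 2371 in L-NAME-fed (-0.51 ± 0.07), Mybpc3 went from 2499 to 3510.5 to 1888 to 2127 (-0.63 ± 0.09) and Myl3 from 2966 to 4212 to 2171 to 2569 (-0.61 ± 0.10). Atp2a2, the calcium pump itself, was -0.62 and -0.44 on its 2 brightest probe sets and 0.49 and 2.19 on the next 2, all 4 called. After quantile normalization Pln was -0.08 and no longer called.

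The list of natriuretic peptides and fetal cardiac genes had 13 of 23 lower and 1 higher, and 14 of the 23 were in the brightest bin. It also holds adult myocyte genes, such as Pln and Atp2a2, and cardiac transcription factors, so its count is not one of load markers. After quantile normalization 2 were higher and 6 lower. Of 9 members with several bright probe sets 1 was lower on all, and 5 had calls in opposite directions. Nppa, Nppb and Acta1, the classical markers of cardiac load, did not separate the groups. Nppa read 1050.0, 683, 870.2 and 2183 in Met-fed and 561, 1135, 587 and 1092 in L-NAME-fed (-0.43 ± 0.34, adjusted p = 0.33), with overlap. Nppb differed by -0.04 ± 0.35 and skeletal actin Acta1 by 0.26 ± 0.15 (adjusted p = 0.94 and 0.18). Xirp1, an intercalated disc protein, read 923, 1487, 1556 and 1020.1 in Met-fed and 580.1, 496, 378 and 393 in L-NAME-fed (-1.42 ± 0.18, adjusted p = 1.1e-05). Hand2, a cardiac transcription factor, was lower on both probe sets, from 125 to 156 to 58.7 to 64.2 on the brighter (-1.17 ± 0.13) and -1.26 ± 0.41 on the dimmer.

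Respiratory chain and ATP synthase genes were lower in 49 of 66 (74.2%) and higher in 1, with a median of -0.51. All but 1 of the 66 were in the brightest bin, where 56.7% of genes were lower. Read by the brightest probe set, the lower calls outnumbered the higher ones under each of these scalings. There were 13 higher and 29 lower after quantile normalization, 4 and 40 with spike-in centring, and none higher and 62 lower with median centring. Of 6 members with several bright probe sets none was lower on all, and 3 had calls in opposite directions. The complex I subunits Ndufa3, Ndufb2 and Ndufs7 read 2739.5 to 3462, 2363 to 2943 and 1917 to 2892 in Met-fed and 1479 to 1728, 1358 to 1546 and 1001 to 1144 in L-NAME-fed. Their differences were -0.98 ± 0.08, -0.89 ± 0.07 and -1.16 ± 0.11, and that of Uqcrq of complex III was -0.85 ± 0.08, none with overlap.

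Fatty acid uptake and oxidation genes were lower in 25 of 50 (50%) and higher in 6, with 30 of the 50 in the brightest bin. Quantile normalization gave 7 higher and 16 lower. Plin5, a lipid droplet protein of oxidative muscle, read 372, 452, 580.0 and 388 in Met-fed and 152, 126, 149.8 and 113 in L-NAME-fed (-1.72 ± 0.14, adjusted p = 1.7e-07). Ucp2, a mitochondrial carrier, read 1509.5, 1552, 1764 and 1352 against 497, 570.0, 714 and 546 (-1.42 ± 0.11, adjusted p = 1.3e-07). Both are single probe sets far apart between groups. Cpt1a, the liver-type carnitine palmitoyltransferase, was -1.11 ± 0.11 on its bright probe set and 1.11 ± 0.42 on a dim one, and its mean over probe sets was 0.00. Plin2 was -0.93 ± 0.08 on one probe set and -0.04 ± 0.16 on the other.

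Ribosomal protein genes were lower in 30 of 42 and higher in 4 as deposited, but higher in 13 and lower in 8 after quantile normalization, so their direction rests on the scaling. Of the 42, 38 were in the brightest gene bin, where 56.7% of all genes were lower and 7.81% higher. Over all genes 22.5% were lower and 21.5% higher. Rpl34 (-0.83), Rps15 (-0.80), Rpl21 (-0.61) and Rps29 (-0.79) had the smallest p. Heat shock proteins and co-chaperones were lower in 16 of 39 (41%) and higher in 7 (17.9%), against 11 and 14 after quantile normalization. Of these 39, 20 were in the brightest gene bin, so the share of lower calls is not above that of genes of like signal. Hspb1, a small heat shock protein abundant in muscle, read 1551, 1716, 1449.9 and 1649 in Met-fed and 702, 381, 413 and 632 in L-NAME-fed (-1.63 ± 0.18, adjusted p = 3.2e-06) and was called with the beta-actin covariate (-2.76). Hsf1, the main heat shock factor, was -0.99 ± 0.13, and the Hsp90 co-chaperones Chordc1 and Ahsa1 were -0.88 ± 0.09 and -0.57 ± 0.08.

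Antioxidant genes divided into 10 higher (27%) and 12 lower (32.4%) of 37, against 2 and 21 with median centring and 14 and 6 with spike-in centring. As deposited, the shares were 21.5% and 22.5% over all genes. They were 23.8% and 35.1% in gene bin 9, where the median member lay. The glutathione peroxidases Gpx4, Gpx3 and Gpx1 were lower on their bright probe sets (-0.93, -0.73 and -0.58), and the endoplasmic reticulum peroxiredoxin Prdx4 was higher, from 264 to 290.2 to 462 to 604 (0.89 ± 0.12). Of 14 subunits and relatives of NAD(P)H oxidase and xanthine oxidase 3 were higher and 3 lower (21.4% each). In gene bin 5, where their median member lay, 29% of all genes were higher and 23.3% lower.

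Endothelial markers were called in both directions, with 11 of 27 higher (40.7%) and 8 lower (29.6%), and a median of 0.12. The shares were 21.5% and 22.5% over all genes and 30.4% and 31% in gene bin 8, where the median member lay. Calls in both directions are thus usual for genes of like signal. The split was 6 higher and 10 lower with median centring and 12 and 2 with spike-in centring. Aqp1, the water channel of capillary endothelium, read 607, 637, 572 and 639 in Met-fed and 1103, 1152, 1219 and 1224 in L-NAME-fed (0.94 ± 0.08, adjusted p = 5.3e-07) and 2.06 ± 0.18 on its second probe set. Esam, a junctional adhesion protein, read 275, 169.5, 194 and 247 against 624, 609, 671 and 618 (1.53 ± 0.15, adjusted p = 1.4e-06). Erg, an endothelial transcription factor, was 1.28 ± 0.14 on one bright probe set and 0.08 ± 0.16 on the other, which was not called. Of genes of VEGF, angiopoietin and hypoxia 8 of 28 were higher (28.6%) and 6 lower (21.4%), against 6 and 15 with median centring. Their median member also lay in gene bin 8. The lower ones included Vegfb, a ligand of Flt1, which read 1160.5, 1871, 1921 and 1556 in Met-fed and 767, 571, 611 and 622 in L-NAME-fed (-1.32 ± 0.13, adjusted p = 1.3e-06). Egln1, the oxygen-sensing prolyl hydroxylase, was -0.95 ± 0.09, and Epas1, HIF-2 alpha, was -0.71 ± 0.08 on its bright probe set and 1.001 ± 0.46 on a dim one that was not called. Higd1a, a mitochondrial protein induced by hypoxia, was -0.79 ± 0.10 and 0.70 ± 0.12 on 2 bright probe sets.

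Vasoactive peptides and their receptors were higher in 8 of 23 (34.8%) and lower in 2, and 10 of the 23 were at or above the median signal. All genes had shares of 21.5% and 22.5%, and those of gene bin 3, where the median member lay, 18.6% and 8.23%. With median centring 6 were higher and 3 lower. Aplnr, the apelin receptor, read 294, 439, 236 and 366 in Met-fed and 741, 826, 541 and 983 in L-NAME-fed (1.22 ± 0.22, adjusted p = 3.0e-04). Calcrl, the receptor of adrenomedullin and CGRP, read 56.6, 75.8, 51.7 and 56.01 against 183, 148, 122 and 153 (1.34 ± 0.19), and Adm, adrenomedullin itself, read 81.5, 94.1, 79.5 and 101 against 194, 139.7, 156 and 199 (0.94 ± 0.17). The L-NAME-fed arrays were above the Met-fed arrays for all 3. Agtrap, which binds the angiotensin receptor, was -0.92 ± 0.20 and 1.35 ± 0.36 on 2 probe sets, the second of them dim.

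Smooth muscle markers were higher in 5 of 16 (31.2%) and lower in 3 (18.8%), beside 21.5% and 22.5% of all genes. In gene bin 7, where the median member lay, 32.7% were higher and 26.9% lower. Acta2, smooth muscle actin, read 30.9, 22.9, 25.5 and 50.98 in Met-fed and 74.9, 58.9, 105 and 207 in L-NAME-fed (1.68 ± 0.35, adjusted p = 0.0011), and Myl9 went from 308 to 475 to 535 to 837 (0.93 ± 0.18). Smtn was -1.27 ± 0.19 and 1.10 ± 0.19 on its 2 probe sets. Of interstitial matrix genes 10 of 45 were higher and 8 lower, and of basement membrane genes 5 of 19 and 3. With median centring these counts were 3 and 17 and 1 and 9, and those of smooth muscle markers 3 and 6.

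Of immediate early genes 13 of 32 were higher (40.6%) and 5 lower, with a median of 0.56. The shares were 21.5% and 22.5% over all genes and 31.1% and 25.8% in gene bin 6, where the median member lay. The median was 0.41 after quantile normalization, with 9 higher and 5 lower, and 9 were higher and 6 lower with median centring. Gadd45a, Gadd45b and Gadd45g, which restrain the cell cycle under stress, were all higher. Gadd45a read 186, 123, 137 and 197 in Met-fed and 469, 541, 417 and 507 in L-NAME-fed (1.61 ± 0.15, adjusted p = 8.5e-07), Gadd45b 168, 92.97, 91.2 and 103 against 474, 227, 337 and 339 (1.60 ± 0.22), and Gadd45g 79.97, 49.2, 77.9 and 59.5 against 401, 149, 219.6 and 193 (1.78 ± 0.25). For each of the 3 the lowest L-NAME-fed array was above the highest Met-fed array. Dusp6, the ERK phosphatase, was -0.99 and -1.002 on its 2 brightest probe sets and 1.41 on the dimmest.

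Cytokines, chemokines and adhesion molecules were higher in 12 of 44 (27.3%) and lower in 3 (6.82%), with a median of 0.25, and with median centring they divided into 8 and 8. The shares were 21.5% and 22.5% over all genes and 29% and 23.3% in gene bin 5, where the median member lay. The share of higher calls is thus near that of genes of like signal. Il33, an alarmin of endothelium and fibroblasts, read 174, 145, 129.5 and 135 in Met-fed and 321, 391, 371 and 402 in L-NAME-fed (1.35 ± 0.13, adjusted p = 1.0e-06) and was 1.06 ± 0.17 on its other probe set. Nfkbia, the inhibitor and target of NF-kappaB, read 173, 135, 114 and 104 against 381, 436, 606 and 331 (1.72 ± 0.21, adjusted p = 9.5e-06). Il1b, an inflammatory cytokine, went from 15.6 to 31.2 to 55.8 to 103 (1.70 ± 0.27), and Il15 from 49.1 to 63.4 to 104 to 138 (1.06 ± 0.17).

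Leukocyte markers were higher in 14 of 38 (36.8%) and lower in 9 (23.7%), against 8 and 12 with median centring and 16 and 3 with spike-in centring. Over all genes the shares were 21.5% and 22.5%. In gene bins 6 and 7, around the median member, they were 31.1% and 32.7% higher and 25.8% and 26.9% lower. The members named by the rule went both ways, with RT1-Da (above) higher. Cd163, the haptoglobin-hemoglobin scavenger receptor, read 726, 660.5, 676 and 819.6 in Met-fed and 231, 290.0, 322 and 354 in L-NAME-fed (-1.28 ± 0.13, adjusted p = 2.1e-06), and Cd68 449, 392, 448 and 460.3 against 199.5, 205, 201 and 314 (-0.95 ± 0.13). Ccr2, the monocyte chemokine receptor, was higher, from 2.46 to 5.07 to 12.98 to 22.7 (2.46 ± 0.35), at signals near the bacterial control level in Met-fed. Blood and erythroid markers were higher in 4 of 8 and lower in none, against 1 and 1 with median centring. Beside Ahsp, these were Alas2, which makes heme in red cells (266, 58.9, 173 and 303 against 341, 308, 465 and 512, 1.23 ± 0.38), and the carbonic anhydrases Car2 (0.64 ± 0.13) and Car1 (2.63 ± 0.88), the latter at or under the bacterial control level on all 4 Met-fed arrays. Alas2 was no longer called without L-NAME-fed replicate 4 (1.11, adjusted p = 0.051), which median centring also ended (0.86), and Car1 without any of L-NAME-fed replicates 1, 2 and 3 or Met-fed replicate 4 (1.82 to 2.61, adjusted p = 0.052 to 0.084). The part of residual blood in the leukocyte and red cell values was not tested.

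Interferon-induced genes were higher in 14 of 34 (41.2%) and lower in 5 (14.7%), with a median of 0.31 as deposited and -0.06 with median centring, which gave 9 higher and 7 lower. As deposited, 21.5% of all genes were higher and 22.5% lower. In gene bin 7, where the median member lay, the shares were 32.7% and 26.9%. Isg15, a ubiquitin-like protein, read 237, 184, 231 and 272 in Met-fed and 684, 541, 614 and 795 in L-NAME-fed (1.51 ± 0.16, adjusted p = 2.6e-06). Irgm, an immunity-related GTPase, read 62.1, 74.8, 61.2 and 69.5 against 169, 160.5, 156 and 238 (1.42 ± 0.15, adjusted p = 3.0e-06). Irf9, which binds DNA in the ISGF3 complex, read 451, 421, 489 and 497 against 666, 719, 749 and 843 (0.68 ± 0.09), and its other probe set was 0.28 ± 0.14 and not called. Ifitm3, a membrane protein that blocks viral entry, was lower, at 2045, 2293, 2398 and 2215 in Met-fed and 1494, 1467, 1609 and 1658 in L-NAME-fed (-0.52 ± 0.07).

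The promoters of 3 of these genes are shown because members of one induced group separated the treatments in opposite directions. Sequences are from RefSeq on build GRCr8, and run on the strand of the gene from 250 bases before to 50 after its start. Capitals mark GAAANNGAAA on either strand, the core of the element that ISGF3 binds. Irgm lies at chr10:33742529-33742828 on the minus strand, Irf9 at chr15:33065586-33065885 on the plus strand and Ifitm3 at chr1:205541709-205542008 on the minus strand.
Irgm: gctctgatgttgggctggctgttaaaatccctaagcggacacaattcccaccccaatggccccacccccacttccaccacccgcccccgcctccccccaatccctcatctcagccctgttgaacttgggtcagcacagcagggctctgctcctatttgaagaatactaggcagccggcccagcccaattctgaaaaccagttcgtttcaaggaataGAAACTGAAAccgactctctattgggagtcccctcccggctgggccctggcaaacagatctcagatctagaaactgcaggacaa
Irf9: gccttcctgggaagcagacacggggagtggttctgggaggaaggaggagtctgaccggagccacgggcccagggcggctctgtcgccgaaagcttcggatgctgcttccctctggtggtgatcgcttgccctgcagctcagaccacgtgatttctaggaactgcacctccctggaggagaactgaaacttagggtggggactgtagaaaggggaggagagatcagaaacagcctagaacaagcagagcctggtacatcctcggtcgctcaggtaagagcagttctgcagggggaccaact
Ifitm3: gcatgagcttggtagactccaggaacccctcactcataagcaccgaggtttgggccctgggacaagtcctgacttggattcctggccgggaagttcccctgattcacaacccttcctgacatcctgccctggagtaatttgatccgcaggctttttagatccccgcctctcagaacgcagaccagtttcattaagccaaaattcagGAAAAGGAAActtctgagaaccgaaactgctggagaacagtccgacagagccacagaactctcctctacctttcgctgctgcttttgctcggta
The motif was found once in Irgm, higher in L-NAME-fed, and once in Ifitm3, lower, and was not found in this window of Irf9. Of 28 interferon-induced genes with a promoter in the table, 22 held it, against 3.92% of all 33469 promoters. It was in 9 of the 12 called higher, 4 of the 4 called lower and 9 of the 12 not called.

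DNA replication and cell division genes were higher in 17 of 49 (34.7%) and lower in 3 (6.12%), with 24 of the 49 at or above the median signal. All genes had shares of 21.5% and 22.5%, and those of gene bin 4, where the median member lay, 27.2% and 14.8%. After quantile normalization 8 were higher and 4 lower, and with median centring 7 and 8. The D cyclins Ccnd2 and Ccnd3 read 262, 214, 216 and 282 and 256, 242, 229.7 and 341 in Met-fed and 510.3, 606, 529.5 and 636 and 516, 533, 566 and 575 in L-NAME-fed (1.23 ± 0.11 and 1.05 ± 0.12). Cdkn1a, the p21 inhibitor of cyclin-dependent kinases, was lower, at 1201, 1695, 1828 and 1473 in Met-fed and 636, 647, 924 and 791 in L-NAME-fed (-1.05 ± 0.16, adjusted p = 7.0e-05). Lmnb1, a lamin, was 1.01 ± 0.12 on its bright probe set.

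Clock genes were higher in 5 of 20 (25%) and lower in 1 (5%), against 3 and 5 with median centring. As deposited, the shares over all genes were 21.5% and 22.5%. Bmal1, the activator of the clock, read 37.3, 64.99, 73.5 and 89.8 in Met-fed and 134, 144, 208 and 223 in L-NAME-fed (1.45 ± 0.28, adjusted p = 6.7e-04). Tef, an output factor, was 1.49 ± 0.21 and 0.56 ± 0.21 on 2 bright probe sets, and the dim Rora 1.26 ± 0.23 and 1.11 ± 0.30. The repressor Cry1 was lower, at 168, 384, 444 and 443 in Met-fed and 137, 110.5, 174 and 202 in L-NAME-fed (-1.15 ± 0.26), with 1 low Met-fed array inside the L-NAME-fed range. The hour of harvest is not on the labels, so its part in these values was not tested.

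The remaining lists are given by their counts, beside shares of 21.5% higher and 22.5% lower over all genes as deposited. The brightest gene bin held 16 of 19 sarcomere, 21 of 34 glycolysis and 21 of 36 proteasome genes. In that bin 7.81% of all genes were higher and 56.7% lower. No result about their members is read from these counts. Members higher and lower were 8 and 6 of 29 for calcium handling and ion channels, 6 and 10 of 34 for glycolysis, and 1 and 12 of 19 for sarcomere proteins (5 and 5 after quantile normalization). They were 11 and 11 of 34 for endoplasmic reticulum folding, 5 and 1 of 28 for the amino acid response, and 5 and 4 of 28 for adrenergic and cAMP signaling. They were 7 and 6 of 23 for glucocorticoid-responsive genes, 13 and 11 of 36 for proteasome subunits, and 18 and 13 of 50 for RNA splicing. With median centring the lower calls outnumbered the higher ones in all of these lists. The counts were then 3 and 12 for calcium handling, 2 and 18 for glycolysis, 0 and 16 for sarcomere proteins, 3 and 15 for endoplasmic reticulum folding, 1 and 7 for the amino acid response, and 1 and 9 for adrenergic signaling. They were 3 and 8 for glucocorticoid-responsive genes, 5 and 21 for proteasome subunits and 9 and 23 for RNA splicing. After quantile normalization glycolysis had 12 higher and 5 lower and the proteasome 18 and 6. Of the other cell types, atrial markers had 1 higher and 3 lower of 10, skeletal muscle 1 and 1 of 13, adipocytes 2 and 4 of 13, and neurons and Schwann cells 0 and 2 of 16.

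Set beside the controls, the separation lay mostly on the L-NAME side. Of the 12495 called probe sets, the control mean was nearer to the Met-fed than to the L-NAME-fed mean in 11819 (94.6%) and nearer to the L-NAME-fed mean in 676. In the same limma fit L-NAME-fed differed from control in 14183 probe sets (45.7%), 8908 higher and 5275 lower, and Met-fed in 0 of 31042, with 3319 at an unadjusted p under 0.05. The 2 comparisons share the control arrays. The control arrays also lay with the Met-fed arrays in mean beta-actin ratio (3.47 and 3.53, against 2.48 in L-NAME-fed). The same held for the mean of the median signal (26.6 and 27.7, against 35.7). Treatment and array measures therefore cannot be told apart in these counts either. Siva1 was -1.96 against control in L-NAME-fed and 0.12 in Met-fed, Nosip -1.77 and 0.06, Isg15 1.62 and 0.11, and Esam 1.44 and -0.10. For some genes the Met-fed side lay away from control too, though no probe set was called in that comparison. These values were 1.76 in L-NAME-fed and -0.89 in Met-fed for Ahsp, and 1.51 and -0.96 for Cyp1a1, beside those of Flt1 above.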

How the data were processed

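The 13 arrays are biotin-labelled total RNA of rat left ventricle on Affymetrix Rat Genome 230 2.0. The authors deposited MAS5 signal intensity per probe set (MAS5 per the submitters' processing notes, version not given). Its 2% trimmed mean is 150.0 on every array, which sets a common scale but not the shape of the distribution. Of 31099 probe sets 57 Affymetrix controls were left out. Signals were taken to log2 with no offset and tested with limma 3.58.1 (R 4.3.3, lmFit and eBayes with trend) over all 13 arrays, Benjamini-Hochberg over 31042 probe sets, threshold 0.05. The study's methods name a t-test with variance stabilization, which is among the alternatives. The script was tested on simulated data.

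Of the probe sets 20826 have 1 symbol in the platform annotation (20758 updated by gene ID to RefSeq), 436 several and 9780 none. A gene was read by its brightest single-symbol probe set, and the others were listed. Bright means at or above the median mean log2 signal (29.2 as a signal). The highest of 27 bacterial control probe sets on an array stands for background. Named genes are 12 rises and 12 falls on which all bright probe sets agreed without overlap, ranked by the smaller difference, 8 and 8 of genes with 1 probe set, up to 4 of a list by p, 6 with opposite calls, and the NO synthases and methionine cycle enzymes. Some 37 gene lists were used. The members and lists were chosen with earlier results of these data known. No test was run over a list. The number of arrays limits the precision.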

Additional observations from a re-analysis of the deposited data

Results flagged for a closer look

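In 15 of 276 groups of 4 arrays (138 named genes, brightest probe set, Met-fed and L-NAME-fed), a single array lay apart from the other 3 by more than Dixon's 95% critical share of the range, which chance passes in about 1 group in 20. Met-fed replicate 1 was the low array for Opcml (0.849 of the range, signal 25.1 against 63.0 to 74.3), Zbtb47 (0.870, 142 against 162 to 166), Aopep (0.840, 204 against 356 to 395), Mat2b (0.866, 1170 against 1370 to 1400) and Cry1 (0.849, 168 against 384 to 444). It was the high array for Slu7 (0.938, 51.2 against 35.0 to 35.9). Met-fed replicate 4 was low for Ring1 (0.884, 133 against 159 to 162) and Met-fed replicate 2 for Cd68 (0.838, 392 against 448 to 460).

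Among L-NAME-fed arrays replicate 4 was high for Cd68 (0.938, 314 against 200 to 205), Hsf1 (0.851, 65.4 against 57.5 to 58.6) and Nmt1 (0.871, 689 against 643 to 648). Replicate 2 was low for Flt1 (0.920, 207 against 220 to 222) and for Nos2 (0.922, 0.759 against 10.6 to 13.2). Replicate 1 was high for Sms (0.890, 498 against 430 to 437) and low for Epas1 (0.863, 832 against 846 to 849).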

How the results depend on the processing

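The share of calls that were higher in L-NAME-fed moved from 63.1% to 49.48% with quantile normalization, 34.41% with array median centring and 79.63% with spike-in centring, which was chosen after seeing the data. With the beta-actin ratio as a covariate the 12495 calls became 238 (23.11% higher), the 392 genes called the same way by all bright probe sets became 2, and the 382 with opposite calls became 0. With the spike-in mean as a covariate these were 7526, 198 and 172, and spike-in centring left 232 with opposite calls. The unequal-variance t-test left 253 genes called the same way. The methods' t-test gave 14217 probe sets at an unadjusted p under 0.05 and 11070 after Benjamini-Hochberg. The replicate block on the 8 arrays gave 12328 calls and changed no call of a named gene. The labels do not say whether replicate numbers pair the animals. Same-numbered deviations correlated at -0.12, -0.21, 0.11 and 0.24, and different-numbered ones at -0.29 to 0.28. So few values cannot decide whether there was a pairing. Leaving out single arrays gave 10992 to 12628 calls. Averaged over all probe sets, Pygm turned to 1.29, Gramd2b to 1.01, Nmt1 to 0.69, Vars1 to 0.65, Atp2a2 to 0.48, Ythdf2 to 0.25, Agtrap to 0.21, Epas1 to 0.14 and Cpt1a to 0.00092. Mat2a turned to 0.19 with quantile normalization. Of 138 named genes, 111 were no longer called with the beta-actin covariate, 9 with the spike-in covariate, 8 with median centring and 3 with quantile normalization, all in the same direction. Signals near the bacterial controls limit what can be read for Nos1, Nos2, Bhmt, Car1 and Ccr2. Nos3 lay above those controls but below the median signal.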
